A study of Mus musculus with 18 samples.

Results

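The genes described here are 9 activity-induced genes of neurons and their partners, *Arc*, *Homer1*, *Nptx2*, *Nptx1*, *Vgf*, *Scg2*, *Bdnf*, *Ntrk2* and *Inhba*. They were chosen by name, and all 9 are among the 15329 genes measured by RNA sequencing of the hippocampus. Each of 18 mice gave 1 library, with 3 mice in each of 6 groups. Wild-type mice and *Ccny* KO mice, which lack the synapse-associated cyclin Y, were C57BL/6J animals of 8 to 10 weeks. Untrained mice form the groups WT_Basal and KO_Basal. Mice that had learned the place of a hidden platform in the Morris water maze, called original learning, form WT_OL and KO_OL, and those that then also learned a new place, called reversal learning, form WT_RL and KO_RL. Both genotypes therefore went through the same 3 training states, and the WT mice carried the intact gene. The part of *Ccny* that the knockout allele removes, and the time between the last swim and tissue collection, are not given in the sources used here. The levels of whole hippocampal tissue are reported, so that fewer cells of a type and less RNA per cell cannot be told apart.

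When a neuron fires strongly, calcium entry activates transcription factors that are already present, such as CREB, and these switch on a first wave of genes. Some of these genes encode further transcription factors. Others, the effectors, act directly at the synapse: *Arc* encodes a protein that promotes removal of AMPA receptors from the postsynaptic membrane, *Homer1* a scaffold that links metabotropic glutamate receptors to intracellular calcium stores, and *Nptx2* (also called Narp) and *Nptx1* secreted pentraxins that gather AMPA receptors from outside the cell. *Vgf* and *Scg2* encode granin-like proteins of dense-core vesicles that are cut into signaling peptides. *Bdnf* encodes brain-derived neurotrophic factor, *Ntrk2* its receptor TrkB, and *Inhba* the subunit from which activin A is made. Most of these genes are known to be induced by activity in hippocampal neurons, whereas *Ntrk2* and *Nptx1* are abundant in neurons at rest.

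Promoter sequences were available for 5 of the 9 genes (*Scg2*, *Bdnf*, *Homer1*, *Inhba* and *Ntrk2*), with 12 start sites in all, 7 of them of *Bdnf* and 2 of *Homer1*. They are shown because the count of each gene sums transcripts from all of its starts. In addition, the cAMP response element, through which CREB binds DNA, can be read in the *Scg2* window. Its shorter core can be read in a *Homer1* and a *Bdnf* window. RefSeq sequences on GRCm38.p6 were searched on both strands from 250 bases before each start to 50 after it for the cAMP response element TGACGTCA, for its core TGACG (which is contained in the full element on each strand), for the AP-1 site TGAGTCA, for the EGR site GCGTGGGCG and for the TATA box TATAAA. The 120 bases before the start are printed 5′ to 3′ on the strand of the gene, and capitals mark TGACG on either strand or TATAAA.
*Scg2*, chr1:79440027-79440146, minus strand: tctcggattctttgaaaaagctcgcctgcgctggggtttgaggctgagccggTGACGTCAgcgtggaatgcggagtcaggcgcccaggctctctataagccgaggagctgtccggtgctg
*Homer1*, chr13:93303637-93303756, plus strand: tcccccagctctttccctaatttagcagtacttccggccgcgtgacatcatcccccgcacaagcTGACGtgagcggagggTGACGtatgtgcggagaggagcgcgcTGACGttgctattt
*Bdnf*, chr2:109692316-109692435, plus strand: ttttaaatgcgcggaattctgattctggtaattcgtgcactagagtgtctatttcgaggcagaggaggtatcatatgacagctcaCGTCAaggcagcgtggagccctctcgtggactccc
*Inhba*, chr13:16011731-16011850, plus strand: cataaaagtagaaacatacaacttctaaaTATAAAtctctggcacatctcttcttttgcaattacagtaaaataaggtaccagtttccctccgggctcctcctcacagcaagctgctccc

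The full element lay 68 bases before the start of *Scg2*, and 1.79% of 32851 mouse promoters of the same length held it. The core was found 3 times before the *Homer1* start at 93303757, at 56, 40 and 14 bases, and once before the *Bdnf* start at 109692436, at 35 bases. Of the 12 windows, the core was thus in that of *Scg2*, in a *Homer1* window and in a *Bdnf* window. Of all promoters, 20.8% held at least 1 core. The *Inhba* window had a TATA box 91 bases before the start (13.6% of promoters). The AP-1 site (5.2% of promoters) and the EGR site (0.612%) were in none of the 12 windows. These matches describe the letters of the windows and are not measurements of binding.

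Libraries held 29248557 to 37915576 reads on listed genes, and the 9 genes were covered by at least 59 reads in every library. *Ccny* was at 107 to 158 CPM (counts scaled to the size of each library) in the 9 WT mice and at 74.0 to 95.8 CPM in the 9 KO mice, so the libraries stood on the side of their labels, although reads of the gene remained in KO tissue. All 6 markers in each of the lists for CA1 pyramidal, CA3 pyramidal and dentate granule neurons had reads in every group, with summed levels of 428 to 751, 290.5 to 416 and 232 to 479.7 CPM. A KO_Basal library, replicate 1, stood apart in the sum of 9 listed markers of hypothalamic neurons. They summed to 117 CPM there and to 2.87 to 14.8 CPM in the other 17 libraries, and none of the 9 was at 0 reads in any group. Most of the 117 CPM came from *Pmch* (52.6 CPM), *Hcrt* (25.0 CPM) and *Trh* (19.5 CPM). The 3 listed markers of pituitary cells summed to 36.2 and 9.23 CPM in WT_Basal replicates 2 and 3. In all other libraries they summed to 0.165 to 3.06 CPM, and *Gh* was at 0 reads in WT_OL and KO_RL. Libraries also differed with training in their relation to GC content. The deviation of a library from the gene means had a slope of -0.182 to -0.113 log2 units per 10 percentage points of transcript GC in the 6 Basal libraries and of -0.0137 to 0.206 in the 12 trained libraries, with the highest value in WT_OL replicate 2. The GC content of the longest transcript was 64.1% for *Vgf*, 59.0% for *Arc*, 58.3% for *Nptx2*, 54.9% for *Nptx1*, 48.6% for *Ntrk2*, 46.8% for *Scg2*, 41.4% for *Inhba*, 40.9% for *Bdnf* and 36.9% for *Homer1*, so values corrected for this slope are given beside the changes with training. The 6 astrocyte markers, none at 0 reads, summed to 4146 to 4569 CPM in the Basal libraries and to 4871 to 6471 CPM in the trained libraries, but they did not move as a set: *Slc1a2* was called higher in all 4 comparisons with Basal, *Aldh1l1* was called higher in WT_OL, *Aqp4* was called lower in both KO comparisons, and the median log2 fold change of the 6 was 0.26 in WT_OL, 0.20 in WT_RL, -0.08 in KO_OL and -0.06 in KO_RL. The 10 listed markers of choroid plexus epithelium, none at 0 reads in a whole group, summed to 887 to 4455 CPM in WT_Basal, 1920.4 to 3359.5 CPM in WT_OL and 46.4 to 8630 CPM in WT_RL, and to 53.3 to 688 CPM in KO_Basal, 2463 to 4749 CPM in KO_OL and 1376 to 5162 CPM in KO_RL. In KO_OL 10 of the 10 and in KO_RL 9 of the 10 were called higher than in KO_Basal (medians of 3.18 and 2.81), and the medians in WT_OL and WT_RL were 0.20 and -1.02. The part of these hypothalamic, pituitary, astrocyte and choroid plexus differences in the changes described next was not tested.

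**Figure D1:**
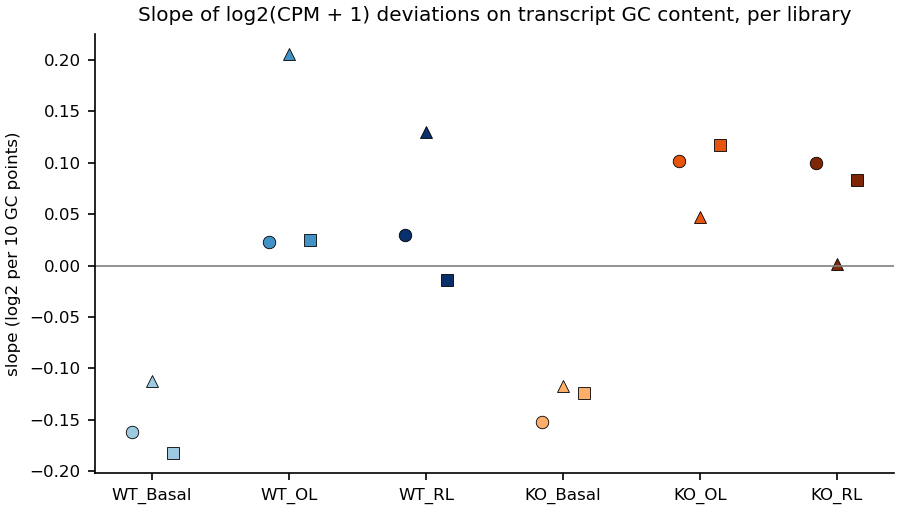
Slope of each library's deviation from the gene means of log2(CPM + 1) on the GC content of transcripts, in log2 units per 10 percentage points, by group (circle, triangle and square are replicates 1, 2 and 3). The 6 Basal libraries lie between -0.182 and -0.113 and the 12 trained libraries between -0.0137 and 0.206.

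The groups were compared with limma over all 15329 genes, and a gene was called when its Benjamini-Hochberg adjusted p was under 0.05. Changes are given as log2 fold changes on the log2(CPM + 1) scale, which understates the change of genes near 1 CPM, with the standard error (SE). Training was followed by higher levels of some effectors in both genotypes, and by no called decrease of any of the 9 genes. The ranges of GC slope did not overlap between Basal and trained libraries, so training cannot be told apart from other differences between them. No group swam without learning, so learning cannot be told apart from swimming and handling. *Arc*, *Vgf* and *Nptx2* were called higher in WT_OL than in WT_Basal, as were 3.88% of all genes (9.5% in either direction). *Arc*, *Vgf*, *Nptx2* and *Inhba* were called higher in WT_RL than in WT_Basal (8.28% of all genes, and 15.7% in either direction). *Vgf* and *Nptx2* were called higher in KO_OL than in KO_Basal (11.2% of all genes, and 23.5% in either direction), and *Vgf*, *Nptx2*, *Nptx1* and *Inhba* in KO_RL (11.6% of all genes, and 23.6% in either direction). The trained mice lay outside the range of the Basal mice for 3 of the 9 genes in WT_OL, 7 in WT_RL, 3 in KO_OL and 7 in KO_RL, as did those of 28.3%, 34.3%, 48.8% and 45.3% of all genes. By the rule of a fold over 1.5 with an unadjusted p under 0.05, *Arc* alone passed in WT_OL (1.8% of all genes), *Arc*, *Vgf*, *Nptx2* and *Inhba* in WT_RL (2.99%), *Arc*, *Vgf* and *Nptx2* in KO_OL (5.46%) and *Vgf*, *Nptx2* and *Nptx1* in KO_RL (5.23%). The median log2 fold change of the 9 genes was -0.11 in WT_OL, 0.56 in WT_RL, 0.12 in KO_OL and 0.26 in KO_RL, and that of all genes was within 0.01 of 0 in each of these comparisons. Both comparisons of a genotype share its 3 Basal mice, so that a chance deviation of those mice enters both. The KO_OL and KO_RL mice also differed from KO_Basal in the choroid plexus markers given above. Corrected for GC content, *Arc* alone was called higher in WT_OL, as were 198 of the 15329 genes (2.36% in either direction). *Vgf*, *Nptx2* and *Inhba* were called higher in WT_RL (674 genes higher, and 7.76% in either direction). *Homer1*, *Vgf* and *Nptx2* were called higher in KO_OL (1168 genes higher, and 15.4% in either direction). In KO_RL *Homer1*, *Vgf*, *Nptx2* and *Inhba* were called higher (1376 genes higher, and 17.8% in either direction). Without WT_OL replicate 2, the library with the highest GC slope, the WT_OL comparison kept *Arc* and *Vgf* (5.9% of all genes in either direction). Without KO_Basal replicate 1 the KO_OL comparison kept both calls (14.5% in either direction). The KO_RL comparison then kept *Vgf*, *Nptx2* and *Inhba* (13.6% in either direction).

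**Figure D2:**
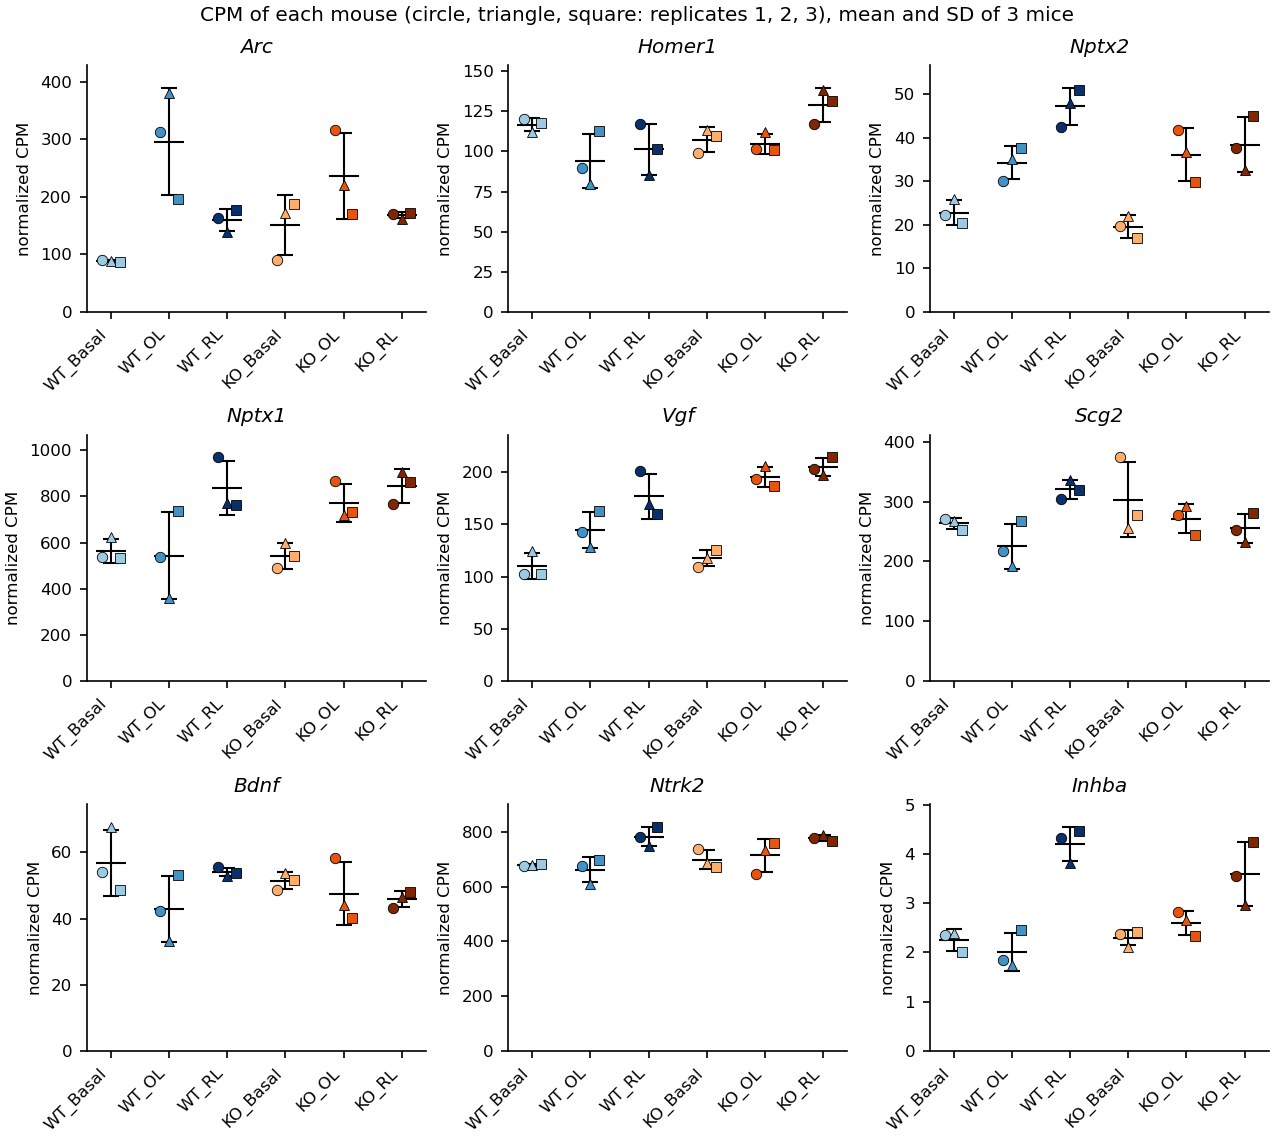
Normalized CPM of the 9 genes in each of the 18 mice, by group, with the mean (bar) and SD (whiskers) of 3 mice, each axis starting at 0. *Vgf* and *Nptx2* are higher in all 12 trained mice than in all 6 untrained mice, whereas the 3 WT_OL mice of *Nptx1* spread from 359 to 737 CPM.

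*Arc* (chromosome 15, 74669083 to 74672570, minus strand, GRCm38) had the largest change of the 9 genes after original learning in WT mice. Untrained WT mice had 89.3, 89.0 and 85.9 CPM, and WT_OL mice had 312, 381 and 196 CPM. The WT_RL mice were at 163, 138 and 177 CPM. Every trained WT mouse was thus above every untrained one, and the WT_RL mice were below the WT_OL mice without overlap. The mean rose from 88.1 ± 1.86 CPM (SD, n = 3) to 296 ± 93.7 CPM in WT_OL, a change of 1.69 (SE 0.260, adjusted p = 0.00132 from limma), and of 1.52 with GC correction (adjusted p = 0.00524). In WT_RL the mean was 159.5 ± 19.7 CPM, or 0.84 above WT_Basal (adjusted p = 0.0372 from limma). The latter call was lost with GC correction (0.72, adjusted p = 0.0923) and when any 1 of these 6 mice was left out (adjusted p of 0.0556 to 0.103). Between WT_RL and WT_OL the difference was -0.84 (adjusted p = 0.170 from limma).

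Untrained KO mice were not uniform in *Arc*. KO_Basal replicate 1 was at 90.8 CPM, the level of WT_Basal, while replicates 2 and 3 were at 172 and 188 CPM. This is the library with the hypothalamic markers, whose part in the low *Arc* value was not tested. The KO_OL mice were at 317, 221 and 170.1 CPM and the KO_RL mice at 171, 162 and 172 CPM, so that both groups overlapped KO_Basal. Neither change with training was called in KO mice, with log2 fold changes of 0.67 in KO_OL (SE 0.260, adjusted p = 0.0729 from limma) and 0.23 in KO_RL (adjusted p = 0.555). Without KO_Basal replicate 1 they were 0.34 (adjusted p = 0.351) and -0.10 (adjusted p = 0.822). Without KO_Basal replicate 3 the change in KO_OL was 0.86 and without KO_OL replicate 3 it was 0.88, each with an adjusted p of 0.0421 or 0.0422 from limma.

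*Homer1* (chromosome 13, 93299635 to 93405129, plus strand) gives rise to long scaffold forms and to a short activity-induced form, Homer1a, which uncouples the scaffold. The deposited count covers the whole gene, so these forms cannot be told apart. Levels were 119.997, 112 and 118 CPM in WT_Basal, 89.6, 79.9 and 112 CPM in WT_OL, and 117, 85.2 and 101 CPM in WT_RL. The KO mice were at 98.9, 114 and 110 CPM in KO_Basal, 102, 112 and 101 CPM in KO_OL, and 117, 138 and 132 CPM in KO_RL. The WT groups overlapped, whereas all 3 KO_RL mice were above all KO_Basal and all KO_OL mice. No change was called in the deposited values: the log2 fold changes against Basal were -0.32 in WT_OL (SE 0.119, adjusted p = 0.0990 from limma), -0.21 in WT_RL (adjusted p = 0.244), -0.03 in KO_OL (adjusted p = 0.868) and 0.26 in KO_RL (adjusted p = 0.122).

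*Homer1* has the lowest GC content of the 9 genes, and its changes moved the most with GC correction. The corrected values were 0.015 in WT_OL (adjusted p = 0.960 from limma), 0.15 in WT_RL (adjusted p = 0.364), 0.39 in KO_OL (adjusted p = 0.0144) and 0.63 in KO_RL (adjusted p = 0.000778). The direction of the *Homer1* difference after training in 3 of the 4 comparisons therefore depends on whether the library slope is removed.

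*Nptx2* (chromosome 5, 144545902 to 144557478, plus strand) separated trained from untrained mice in both genotypes. WT_Basal mice were at 22.2, 25.9 and 20.3 CPM, WT_OL mice at 30.1, 35.2 and 37.7 CPM and WT_RL mice at 42.6, 48.1 and 51.1 CPM. KO_Basal mice were at 19.6, 22.1 and 17.0 CPM, KO_OL mice at 41.9, 36.7 and 29.9 CPM and KO_RL mice at 37.6, 32.7 and 45.1 CPM. The lowest trained mouse, of KO_OL, was above the highest untrained mouse, of WT_Basal, and the WT_RL mice were all above the WT_OL mice. The log2 fold changes were 0.57 in WT_OL (SE 0.141, adjusted p = 0.0188 from limma), 1.02 in WT_RL (adjusted p = 0.000325), 0.85 in KO_OL (adjusted p = 0.000612) and 0.94 in KO_RL (adjusted p = 0.000296). Corrected for GC content they were 0.41 (adjusted p = 0.147), 0.90 (adjusted p = 0.00128), 0.73 (adjusted p = 0.00344) and 0.83 (adjusted p = 0.00143 from limma). The calls in WT_RL, KO_OL and KO_RL held under all 16 alternatives, which include leaving out each mouse in turn, while that in WT_OL held under 11 of them.

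*Nptx1* (chromosome 11, 119538719 to 119547753, minus strand), the more abundant pentraxin, did not follow *Nptx2* after original learning in WT mice. WT_Basal mice were at 537, 623 and 532 CPM and WT_OL mice at 536, 359 and 737 CPM, the widest spread of the gene in any group. WT_RL mice were at 969, 771 and 764 CPM. The WT_OL mice lay on both sides of WT_Basal (log2 fold change -0.11, SE 0.186, adjusted p = 0.758 from limma), and the sign depended on replicate 2, without which the value was 0.16. In the same 3 WT_OL mice the 6 dentate granule markers summed to 273, 232 and 459 CPM, the same order as *Nptx1*. The markers of CA3 pyramidal neurons (338, 290 and 350 CPM) and of GABAergic interneurons (826, 755 and 924 CPM) had this order too. Those of CA1 pyramidal neurons (650, 528 and 644 CPM) did not. The order was not particular to *Nptx1* among the 9 genes. *Bdnf*, *Homer1*, *Vgf*, *Scg2*, *Ntrk2* and *Inhba* also had it in these mice, while *Arc* and *Nptx2* did not. The part of these marker differences in the spread of *Nptx1* was not tested. All WT_RL mice were above all WT_Basal and WT_OL mice, with log2 fold changes of 0.56 (adjusted p = 0.0509 from limma) and 0.67 (adjusted p = 0.140).

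In KO mice *Nptx1* was at 488, 600.0 and 540.5 CPM in KO_Basal, at 866, 719 and 731 CPM in KO_OL and at 765, 906 and 862 CPM in KO_RL. Both trained groups were above KO_Basal without overlap. The log2 fold change was 0.51 in KO_OL (SE 0.186, adjusted p = 0.0578 from limma) and 0.64 in KO_RL (adjusted p = 0.0207), and only the latter was called. With GC correction it was 0.56 (adjusted p = 0.0631 from limma), without KO_Basal replicate 1 0.56 (adjusted p = 0.0888), without KO_RL replicate 2 0.59 (adjusted p = 0.0670) and without KO_RL replicate 3 0.62 (adjusted p = 0.0632).

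*Vgf* (chromosome 5, 137026392 to 137033351, plus strand), whose peptides act on synapses and energy balance, was higher in every trained mouse than in every untrained one. The WT mice were at 103, 125 and 103 CPM in WT_Basal, 143, 128 and 163 CPM in WT_OL and 201, 169.5 and 160.0 CPM in WT_RL. The KO mice were at 109.6, 118 and 126 CPM in KO_Basal, 193, 206 and 187 CPM in KO_OL and 203, 197 and 214 CPM in KO_RL. The nearest mice were a WT_OL mouse at 128 CPM and a KO_Basal mouse at 126 CPM. *Vgf* rose by a log2 fold change of 0.39 in WT_OL (SE 0.102, adjusted p = 0.0241 from limma), 0.68 in WT_RL (adjusted p = 0.000601), 0.73 in KO_OL (adjusted p = 0.000172) and 0.79 in KO_RL (adjusted p = 9.33e-05). With GC correction the value in WT_OL was 0.18 (adjusted p = 0.483 from limma), and those in WT_RL, KO_OL and KO_RL were 0.53 (adjusted p = 0.0120), 0.59 (adjusted p = 0.00427) and 0.66 (adjusted p = 0.00183). The call in WT_OL was also lost without WT_Basal replicate 1 or 3 and without WT_OL replicate 1 or 3 (adjusted p of 0.0533 to 0.108).

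**Figure D3:**
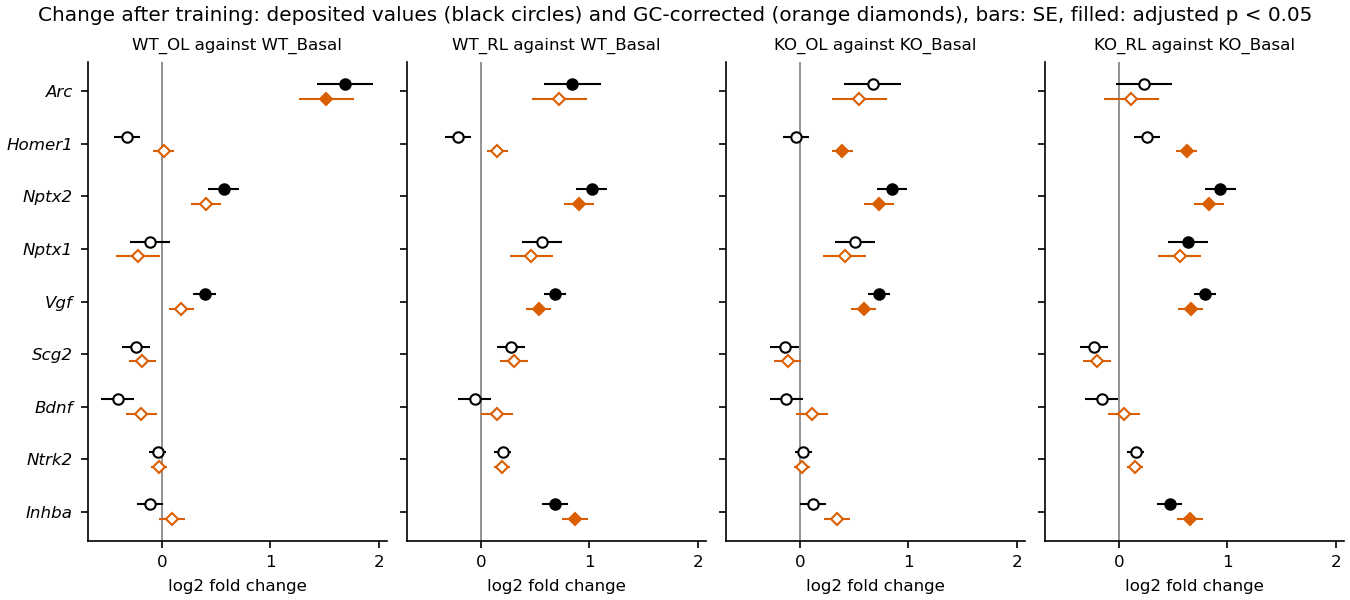
Log2 fold change of each gene after training against untrained mice of the same genotype, with its SE, for the deposited values (black circles) and after correction for GC content (orange diamonds). Filled symbols have an adjusted p under 0.05, and *Homer1* moves from -0.03 to 0.39 in KO_OL while *Vgf* moves from 0.39 to 0.18 in WT_OL.

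*Scg2* (chromosome 1, 79434669 to 79440120, minus strand), which encodes secretogranin II and has the full cAMP response element shown above, differed from *Vgf* in its order of groups. WT mice were at 270.4, 268 and 253 CPM in WT_Basal, 217, 192 and 267 CPM in WT_OL and 305, 336 and 320.0 CPM in WT_RL. KO mice were at 374, 256 and 278 CPM in KO_Basal, 277, 292 and 244 CPM in KO_OL and 253, 233 and 281 CPM in KO_RL. The WT_RL mice were above all other WT mice and above all KO_RL mice, and the highest single value was that of KO_Basal replicate 1. The difference between WT_RL and WT_Basal was 0.28 (SE 0.131, adjusted p = 0.162 from limma) and that between WT_RL and WT_OL 0.52 (adjusted p = 0.113), or 0.65 without WT_OL replicate 3 (adjusted p = 0.0107). KO_RL was at -0.23 against KO_Basal (adjusted p = 0.220 from limma) and at -0.07 without KO_Basal replicate 1 (adjusted p = 0.756).

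*Bdnf* (chromosome 2, 109674700 to 109727007, plus strand) was not called in any of the 12 comparisons. WT mice were at 54.2, 67.8 and 48.5 CPM in WT_Basal, 42.4, 33.1 and 53.2 CPM in WT_OL and 55.5, 52.9 and 53.8 CPM in WT_RL. KO mice were at 48.7, 53.9 and 51.5 CPM in KO_Basal, 58.2, 44.2 and 40.1 CPM in KO_OL and 43.3, 46.5 and 47.9 CPM in KO_RL. WT_OL had both the lowest mean and the lowest mouse, yet overlapped WT_Basal. Its log2 fold change was -0.41 in WT_OL (SE 0.152, 95% confidence interval -0.73 to -0.09, adjusted p = 0.1004 from limma), -0.06 in WT_RL (-0.38 to 0.26), -0.13 in KO_OL (-0.45 to 0.19) and -0.16 in KO_RL (-0.48 to 0.16). Corrected for GC content these were -0.19, 0.15, 0.11 and 0.05. Without WT_OL replicate 3 the first was -0.57 (adjusted p = 0.0174 from limma). The count sums transcripts from the 7 starts mentioned above, so an induced transcript from a single start cannot be seen separately, and the exons overlap those of an antisense gene, *Gm45346*, that is not among the listed genes. How strand was treated in counting is not given in the sources used here, so reads of the antisense gene cannot be separated from those of *Bdnf*.

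*Ntrk2* (chromosome 13, 58806569 to 59133970, plus strand) had the smallest SE of the 9 genes and small differences between groups. WT mice were at 677, 680.1 and 683 CPM in WT_Basal, 677, 611 and 698 CPM in WT_OL and 782, 748 and 819 CPM in WT_RL. KO mice were at 739, 687 and 671 CPM in KO_Basal, 647, 735 and 761 CPM in KO_OL and 779, 789 and 767 CPM in KO_RL. Within each genotype the mice after reversal learning were above all mice of the other training states. The differences were small and were not called, with 0.20 in WT_RL against WT_Basal (SE 0.0780, adjusted p = 0.0889 from limma), 0.24 against WT_OL (adjusted p = 0.183), 0.16 in KO_RL against KO_Basal (adjusted p = 0.161) and 0.13 against KO_OL (adjusted p near 1, unadjusted p = 0.122). *Ntrk2* is transcribed in neurons and in astrocytes, and the astrocyte markers moved with training in the mixed way given above, whose part in these values was not tested.

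*Inhba* (chromosome 13, 16011851 to 16031621, plus strand) was the least abundant of the 9 genes and was higher after reversal learning than after original learning. WT mice were at 2.36, 2.40 and 2.01 CPM in WT_Basal, 1.84, 1.75 and 2.46 CPM in WT_OL and 4.34, 3.82 and 4.48 CPM in WT_RL, each value resting on 59 to 158 reads. KO mice were at 2.38, 2.12 and 2.41 CPM in KO_Basal, 2.82, 2.66 and 2.33 CPM in KO_OL and 3.55, 2.96 and 4.26 CPM in KO_RL. Every mouse after reversal learning was above every mouse of the 4 other groups, and the OL groups overlapped their Basal groups. *Inhba* rose in WT_RL by a log2 fold change of 0.68 against WT_Basal (SE 0.120, adjusted p = 0.00176 from limma) and of 0.79 against WT_OL (adjusted p = 0.0197), where 0.104% of all genes were called higher. Both calls held with GC correction (0.87 and 0.78, adjusted p = 0.000548 and 0.0177). The call against WT_OL was lost without WT_OL replicate 1 (0.75, adjusted p = 0.105 from limma), without WT_OL replicate 2 (0.73, adjusted p = 0.0776) and in a fit of these 6 libraries alone (adjusted p = 0.796).

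In KO_RL *Inhba* was 0.47 above KO_Basal (SE 0.120, adjusted p = 0.0105 from limma), and 0.65 with GC correction (adjusted p = 0.00234). Without KO_RL replicate 3 it was 0.36 (adjusted p = 0.0640 from limma). The difference of 0.34 between KO_RL and KO_OL was not called (adjusted p = 0.810 from limma), although the mice did not overlap. After original learning the values against Basal were -0.12 in WT mice (adjusted p = 0.587 from limma) and 0.12 in KO mice (adjusted p = 0.484).

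Reversal learning was compared with original learning across the 9 genes. In WT mice *Inhba* alone was called, and 0.261% of all genes were called in either direction. The 3 WT_RL mice lay outside the range of the 3 WT_OL mice for 6 of the 9 genes, below it for *Arc* and above it for *Ntrk2*, *Nptx2*, *Nptx1*, *Scg2* and *Inhba*, as did those of 11.1% of all genes. The calls of this comparison depended on which WT_OL mice were included. With WT_OL replicate 3 left out, 8 of the 9 genes and 13.3% of all genes were called. With WT_OL replicate 1 or 2 left out, none of the 9 was called, beside 0% and 0.00652% of all genes. By the fold rule *Arc*, *Nptx1* and *Inhba* passed (1.18% of all genes). In KO mice 0 of the 9 genes were called by limma on the log2 values or by voom on recovered reads, as were 0.0196% of all genes, and *Homer1* and *Inhba* had an unadjusted p under 0.05 (4.81% of all genes). The KO_RL mice lay above the range of the KO_OL mice for *Ntrk2*, *Homer1* and *Inhba* (13.2% of all genes did not overlap).

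Between *Ccny* KO and WT mice of the same training state, none of the 9 genes was called in the limma fit of the deposited values. By limma on the log2 values, and by voom on the recovered reads, 0 of 9 genes were called in Basal, OL or RL mice, where 0.0196%, 0.0652% and 0% of all genes were called, and unadjusted p-values under 0.05 numbered 1, 3 and 2, beside 4.0%, 18% and 4.93% of all genes. In untrained mice the gene concerned was *Arc*, which also passed the fold rule (0.783% of all genes) and was 0.70 higher in KO_Basal (SE 0.260, 95% confidence interval 0.15 to 1.25, adjusted p = 0.994 from limma). All 3 KO_Basal mice were above the WT_Basal mice (14.7% of all genes did not overlap), but the lowest, replicate 1 at 90.8 CPM, was close to the highest WT_Basal mouse at 89.3 CPM, and without it the difference was 1.02 (SE 0.236, adjusted p = 0.853). The other 8 genes differed by -0.21 (*Nptx2*) to 0.18 (*Scg2*).

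After original learning *Vgf* was 0.44 higher in KO_OL than in WT_OL (SE 0.102, 95% confidence interval 0.22 to 0.65, adjusted p = 0.110 from limma), with all KO_OL mice above all WT_OL mice (16.5% of all genes did not overlap). *Nptx1* was 0.56 higher (SE 0.186, adjusted p = 0.186 from limma) with 1 WT_OL mouse inside the KO_OL range. Both were called without WT_OL replicate 3 (adjusted p = 0.0103 from limma for each), as were 16.5% of all genes without that mouse. After reversal learning *Homer1* was 0.36 higher in KO_RL than in WT_RL (SE 0.119, adjusted p = 0.742 from limma) and *Scg2* differed by -0.33 (SE 0.131, adjusted p = 0.916). In both genes, and in *Bdnf*, the KO_RL mice lay outside the range of the WT_RL mice, as did those of 8.18% of all genes.

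Whether training changed a gene differently in the genotypes was tested as a difference between changes, KO minus WT. By limma 0 of the 9 genes were called in any of the 3 such tests, as were 0% of all genes, and voom also called 0. Unadjusted p-values under 0.05 numbered 3 for OL against Basal (12.4% of all genes), 2 for RL against Basal (4.99%) and 2 for RL against OL (7.98%). For OL against Basal, *Arc* had a smaller change in KO mice by 1.02 (value -1.02, SE 0.368, adjusted p = 0.388 from limma), while *Vgf* and *Nptx1* had larger ones by 0.34 (SE 0.144) and 0.62 (SE 0.262), each with an adjusted p of 0.390. Without WT_OL replicate 3, *Arc* (-1.29, adjusted p = 0.0431) and *Nptx1* (0.87, adjusted p = 0.0379 from limma) were called, as were 5.92% of all genes. The fold rule was passed by *Arc* and *Nptx1* for OL against Basal (2.95% of all genes) and by *Scg2* for RL against OL (2.02%). The value of *Arc* without KO_Basal replicate 1 was -1.34 (adjusted p = 0.538 from limma). For RL against Basal, *Homer1* differed by 0.48 (SE 0.168) and *Scg2* by -0.51 (SE 0.185), each with an adjusted p of 0.908 from limma. For RL against OL, *Scg2* differed by -0.60 (SE 0.185, adjusted p = 0.493 from limma) and *Inhba* by -0.45 (SE 0.169, adjusted p = 0.581).

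In order of mean level the groups fell as follows. For *Arc*, WT_Basal was lowest and apart from the next group, and KO_Basal, WT_RL, KO_RL, KO_OL and WT_OL followed with neighbours that overlapped. For *Vgf* and *Nptx2* the only gap between neighbouring groups was that between the Basal groups and the 4 trained groups. For *Nptx1* it lay between WT_Basal and KO_OL, with the WT_OL mean among the Basal groups although 1 of its mice reached the range of the trained groups. For *Ntrk2* and *Inhba* it lay between KO_OL and KO_RL, with the means of both RL groups above. For *Ntrk2*, however, a WT_RL mouse at 748 CPM was below a KO_OL mouse at 761 CPM. For *Bdnf*, *Homer1* and *Scg2* every group overlapped the next.

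Between genes, levels were compared per kilobase of the longest transcript. Over the 18 libraries *Nptx1* had a mean of 131 CPM per kb, *Scg2* 109 and *Ntrk2* 82.3, followed by *Arc* at 59.95, *Vgf* at 55.8, *Homer1* at 19.1, *Nptx2* at 13.0, *Bdnf* at 11.7 and *Inhba* at 0.443 CPM per kb. *Arc* ranged from 28.1 CPM per kb in its lowest mouse to 125 in its highest. The order depends on the transcript taken as the length of a gene, which is uncertain for *Ntrk2*, *Bdnf* and *Homer1* with 10, 11 and 12 annotated transcripts.

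Other genes of the same pathways were read from lists of 109 genes in all. Of 14 rapid activity-induced transcription factors, 10 were called higher in WT_OL, 4 in WT_RL, 8 in KO_OL and 5 in KO_RL, and 0 were called lower. With GC correction these numbers were 7, 3, 6 and 5. Their median log2 fold change was 0.93, 0.44, 0.38 and 0.28 in these comparisons. *Fos*, which encodes a subunit of AP-1, rose from 6.58 ± 0.941 CPM (SD, n = 3) in WT_Basal to 29.0 ± 6.51 CPM in WT_OL. In KO_Basal it was at 16.1 ± 5.67 CPM, with mice at 10.6 to 21.9 CPM. Between KO_Basal and WT_Basal 0 of the 14 were called by limma or by voom. By limma 6 had an unadjusted p under 0.05 (4.0% of all genes). *Egr2* (log2 fold change 1.90, adjusted p = 0.000314 from limma), *Egr4* (1.26, adjusted p = 9.1e-05) and *Fosb* (1.23, adjusted p = 0.000356) were also called in WT_OL. Among 22 other effectors, 3 were called higher in WT_OL, the kinase genes *Plk3* and *Sik1* and the clock gene *Per1*, and 0 lower. These numbers were 4 and 0 in WT_RL, 4 and 2 in KO_OL and 4 and 3 in KO_RL, and with GC correction 3, 1, 3 and 3 were higher in the 4 comparisons and 0 lower. Their median log2 fold change was -0.01, 0.05, 0.05 and 0.13 in the 4 comparisons.

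Partners of the pentraxins split in direction. *Nptxr*, the membrane-anchored pentraxin that joins NPTX1 and NPTX2 in complexes, rose from 5.01 ± 0.816 CPM (SD, n = 3) in WT_Basal to 10.5 ± 2.11 CPM in WT_OL and 18.4 ± 4.03 CPM in WT_RL, log2 fold changes of 0.93 and 1.68 (adjusted p = 0.00314 and 2.99e-05 from limma). In KO mice it rose from 7.19 ± 0.948 CPM to 19.0 ± 2.87 and 22.4 ± 2.17 CPM. It remained called with GC correction in all 4 comparisons. *Gria2* and *Cacng2*, an AMPA receptor subunit and an auxiliary subunit, were called lower in WT_OL (-0.65 and -0.46), and with GC correction *Gria2* was at -0.31 (adjusted p = 0.204 from limma) and *Cacng2* at -0.51 (adjusted p = 0.0168). In all, 1 of the 8 genes of this list was called higher and 2 lower in WT_OL, 1 and 1 in WT_RL, and 2 and 1 in each KO comparison. With GC correction *Nptxr* alone was called higher in each comparison and *Cacng2* alone lower, in WT_OL. The medians of the list were -0.20, 0.07, 0.0027 and 0.03.

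Of 12 partners of Homer1, 2 were called higher in WT_OL, 3 in WT_RL and 5 in each KO comparison, and 0 lower. The postsynaptic scaffold genes *Shank1* (log2 fold changes of 0.88, 0.67, 0.58 and 0.75) and *Shank2* (0.42, 0.38, 0.42 and 0.62) were among them in all 4 comparisons. With GC correction the numbers were 1, 1, 3 and 4. *Shank1* remained called in all 4, while *Shank2* was not called in WT_OL (adjusted p = 0.0850 from limma) or WT_RL (adjusted p = 0.0551). The medians of this list were 0.09, 0.16, 0.22 and 0.35. Of 18 neurotrophins, receptors and adaptors, 1 was called higher in WT_OL, the adaptor gene *Shc3* (0.73, adjusted p = 0.00274 from limma), 3 in WT_RL, 2 in KO_OL and 3 in KO_RL, with *Ntf3* called lower in KO_RL (medians of -0.03, 0.09, 0.15 and 0.17). With GC correction 1, 0, 2 and 4 were higher and 1 was lower, in KO_RL. Of 11 genes of granins and prohormone processing, *Pcsk1n* was called in WT_OL (0.78, adjusted p = 0.0126 from limma), 3 were higher in WT_RL, 1 was higher and 1 lower in KO_OL, and *Scg5* alone was called, lower, in KO_RL (medians of -0.03, 0.40, 0.18 and 0.16). With GC correction 2, 3, 1 and 1 were higher and 1 was lower, in KO_RL. *Pcsk1n* encodes an inhibitor of a prohormone convertase and was at 241 ± 15.6 CPM in WT_Basal and 392 ± 44.2 CPM in KO_Basal (SD, n = 3), a difference of 0.70 that was not called (adjusted p = 0.994 from limma), with a change of 0.22 in KO_OL (adjusted p = 0.395 from limma).

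Of 13 genes of activin signaling, 0 were called in WT_OL by limma or by voom, and 4 had an unadjusted p under 0.05 (25.9% of all genes). In WT_RL and in KO_OL *Smad7*, an inhibitor of the pathway, was called higher and the inhibin subunit *Inha* lower, and in KO_RL *Smad3* and *Smad7* were higher and the receptor gene *Acvr2a* lower. With GC correction 0, 1, 2 and 3 were higher and 0, 1, 1 and 1 lower. The medians of this list were -0.07, -0.03, 0.07 and 0.07. Of 11 partners of Arc, 0 were called in WT_OL by limma or by voom, with an unadjusted p under 0.05 for 2. *Rnf216*, which encodes a ubiquitin ligase of Arc, was higher in WT_RL, and 4 and 5 were higher in KO_OL and KO_RL (medians of 0.08, 0.22, 0.09 and 0.17). With GC correction 0, 1, 1 and 2 were higher. *Ntf3*, *Scg5*, *Rnf216* and the named genes of activin signaling were chosen after their values were seen. Between genotypes in the same training state, 0 of the 109 genes were called by limma or by voom, and 10, 36 and 9 had an unadjusted p under 0.05 in Basal, OL and RL mice, beside the 4.0%, 18% and 4.93% of all genes given above. In the differences between changes it was 0 by both as well, with 24 for OL against Basal, 7 for RL against Basal and 17 for RL against OL at an unadjusted p under 0.05 (12.4%, 4.99% and 7.98% of all genes). The share of all genes called higher was 3.88% in WT_OL, 8.28% in WT_RL, 11.2% in KO_OL and 11.6% in KO_RL.

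The genes whose log2 values followed each of the 9 genes most closely over the 18 libraries were taken as a description, since the libraries share groups, depth and the GC slope. *Nr4a1* (Pearson's r of 0.966) and *Fos* (0.944), both rapid activity-induced transcription factors, were nearest to *Arc*, and r stayed at 0.935 and 0.833 with the group means removed. *Pou6f1* came next (0.846, and 0.766 with the group means removed). KO_Basal replicate 1 had an *Nr4a1* level near that of the WT_Basal mice (41.2 CPM against 41.5 to 42.6 CPM) and the lowest *Fos* of the KO mice (10.6 CPM), as it had the lowest *Arc* of the KO mice. Within the KO_OL group the mouse with the highest *Arc*, replicate 1, also had the highest *Nr4a1* (95.8 CPM) and *Fos* (26.9 CPM). The same held for replicate 3 in KO_Basal and in KO_RL. In no WT group did the mouse with the highest *Arc* lead in both genes. That of WT_OL, replicate 2, had 29.1 CPM of *Fos* against 35.5 CPM in replicate 1. That of WT_RL, replicate 3, had 57.0 CPM of *Nr4a1* against 62.0 CPM in replicate 1. Nearest to *Nptx1* were *Gabbr2* (0.975), *Ezh1* (0.971) and *Madd* (0.969), with 0.972, 0.939 and 0.970 after the group means were removed. Nearest to *Nptx2* were *Pi4k2a* (0.933), *Syt12* (0.914) and *Mcc* (0.913), with 0.647, 0.760 and 0.199 after the group means were removed. *Vgf* was nearest to *Nomo1* (0.973) and *Map1a* (0.971), *Bdnf* to *Clvs2* (0.910) and *Homer1* to *Foxp1* (0.906). With the group means removed these were 0.706, 0.873, 0.882 and 0.887. *Ntrk2*, *Scg2* and *Inhba* were nearest to *Snx27* (0.867), *Rab27a* (0.836) and *Rgs8* (0.889), with 0.720, 0.878 and 0.629 after the group means were removed.

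**Figure D4:**
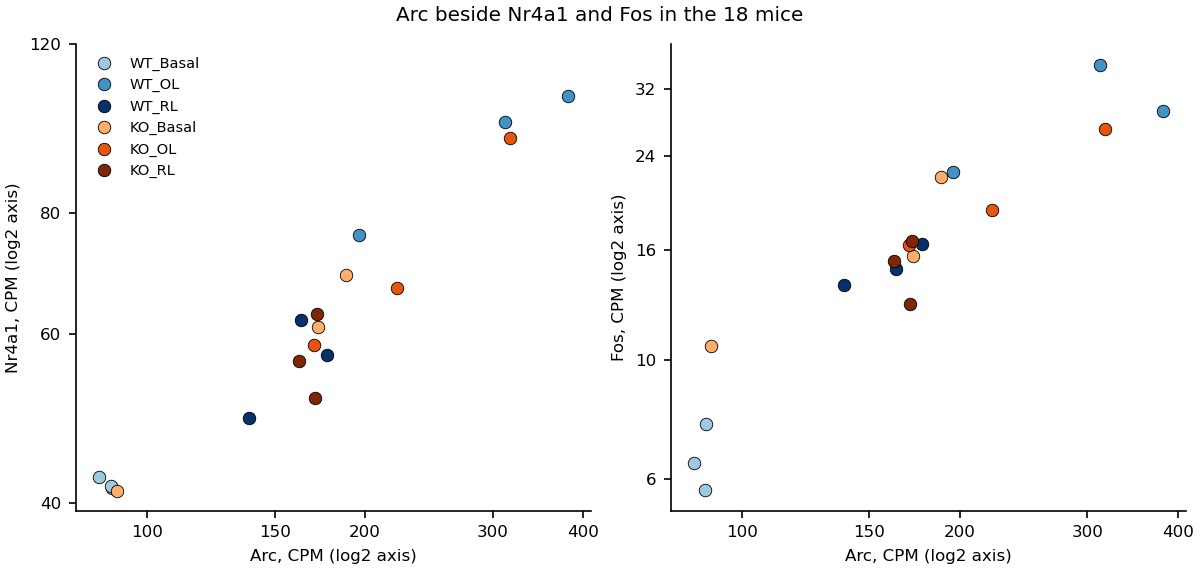
CPM of *Arc* (x axis) against *Nr4a1* and *Fos* (y axes), all on log2 axes, in the 18 mice colored by group. The 3 WT_Basal mice lie at the lower left with KO_Basal replicate 1 at 90.8 CPM of *Arc*, and the highest *Arc* value, 381 CPM in a WT_OL mouse, goes with 106 CPM of *Nr4a1*.

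Among the 9 genes themselves, *Vgf* and *Nptx1* had the highest r over the 18 libraries (0.808), which was 0.733 with the group means removed, followed by *Vgf* and *Nptx2* (0.778 and 0.173). *Bdnf* and *Nptx1* had an r of 0.385 that was 0.846 within groups, so that mice of a group with more *Bdnf* also had more *Nptx1*. *Arc* differed in sign between partners. Its r was 0.445 with *Vgf* (-0.07 within groups) and 0.443 with *Nptx2* (0.15 within groups). It was near 0 with *Nptx1* (0.01, and -0.21 within groups) and *Inhba* (-0.09 in both). It was -0.491 with *Bdnf* (0.01 within groups), -0.485 with *Scg2* (-0.62 within groups), -0.418 with *Homer1* (-0.13 within groups) and -0.268 with *Ntrk2* (-0.75 within groups). A mouse with high *Arc* for its group thus tended to have lower *Ntrk2* and *Scg2*, over 18 libraries that also differed in GC slope. KO_Basal replicate 1, the library with the hypothalamic markers, had the lowest *Arc* of its group (90.8 CPM). It also had the highest *Scg2* (374 CPM) and *Ntrk2* (739 CPM) of that group. Within KO_OL the lowest *Arc* (170 CPM) went instead with the lowest *Scg2* (244 CPM). The part of the hypothalamic markers in these r values was not tested.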

How the data were processed

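Hippocampal RNA of 18 mice, 1 library each, was sequenced after poly(A) selection. The labels name a stranded TruSeq mRNA kit and the study's methods a TruSeq RNA kit. The authors aligned the reads with STAR 2.5.1 to mm10, counted them per gene, scaled the counts with the TMM factors of edgeR 3.12.1 and deposited log2 values of CPM for 15329 genes. The methods describe CPM floored at 1, but the deposited log2 values gave whole reads in every library as log2(CPM + 1) (100% of values within 0.05 of a whole read), which was used. Reads on listed genes numbered 29248557 to 37915576 per library (median 32801079), so that 1 read was worth 0.0274 to 0.0333 CPM. All columns were matched to samples by name, and replicates are separate mice.

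Groups were compared on the deposited scale by linear models in limma 3.58.1 under R 4.3.3. These had 1 mean for each of 6 groups, a variance trend and 12 residual degrees of freedom. Tests were two-sided, with Benjamini-Hochberg adjustment over 15329 genes. The models recovered planted changes in simulated data with independent noise for each gene. Those data had no GC slope or outlying library, so they do not test the models under the library differences given above. Of the comparisons, 9 were between 2 groups and 3 were differences between changes. An exact permutation test of 3 mice against 3 cannot go below p = 0.1 and was not used. GC correction removed a smooth fit of each library's deviations on the GC content of the longest transcript (GENCODE, GRCm38, 15230 genes). Other alternatives were CPM floored at 1, a pseudocount of 0.25, a filter on low values, no variance trend, a replicate block, median-of-ratios scaling, library weights, voom on recovered reads, only the groups compared, a rule of fold over 1.5 with unadjusted p under 0.05, and leaving out each mouse.

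All 9 genes were named, and of each pathway list up to 4 genes with the largest change among those called in WT_OL. Of the 3 genes most alike to each of the 9 over 18 libraries (mean log2 of at least 3), at least 1 was named. The genes and lists were chosen with earlier results of these data known. Figures were drawn with matplotlib 3.10.9 and tables with pandas 2.3.3.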

Additional observations from a re-analysis of the deposited data

How the results depend on the processing

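Of 52 results of single genes, 14 were called, and over 10 alternatives other than leaving out a mouse 482 of the recomputed values kept their direction and side of the threshold, 22 passed it only under the alternative, 9 no longer passed and 7 reversed. All 7 reversals were under GC correction: *Inhba* 0.089 and *Homer1* 0.015 in WT_OL, *Homer1* 0.15 and *Bdnf* 0.15 in WT_RL, *Homer1* 0.39 and *Bdnf* 0.11 in KO_OL, and *Bdnf* 0.046 in KO_RL. Library weights were 7.03 for WT_OL replicate 1 against 0.208 and 0.381 for replicates 2 and 3. The weighted WT_OL values thus rested largely on 1 mouse. The number of the 9 genes called moved under library weights to 6 in WT_OL (31.8% of all genes), 6 between WT_RL and WT_OL (3.89%), 4 in KO_OL (39.9%), 1 between KO_RL and KO_OL (0.828%), 5 between KO_OL and WT_OL (27.3%) and 4 for the difference between genotypes in OL against Basal (13.4%). In WT_OL it was 1 with GC correction (2.36% of all genes), with only the groups compared (0.483%) and with a fold over 1.5 and unadjusted p under 0.05, and between WT_RL and WT_OL it was 0 with only the groups compared (0%, with an unadjusted p under 0.05 for 5.21%). The fold rule gave 3 between WT_RL and WT_OL, 1 between KO_Basal and WT_Basal, 2 for the difference between genotypes in OL against Basal and 1 in RL against OL. Leaving out 1 mouse gave 1 to 4 calls in WT_OL (1 without WT_Basal replicate 1 or 3), 3 in WT_RL, 0 to 8 between WT_RL and WT_OL, 2 to 3 in KO_OL, 2 to 4 in KO_RL (2 without KO_RL replicate 3), 0 to 3 between KO_OL and WT_OL and 0 to 2 for the difference between genotypes in OL against Basal (the highest values without WT_OL replicate 3, when 16.3%, 13.3%, 16.5% and 5.92% of all genes were called in the WT_OL, WT_RL against WT_OL, KO_OL against WT_OL and difference comparisons). It reversed 4 values: *Nptx1* in WT_OL ranged from -0.36 to 0.16, *Bdnf* in WT_RL from -0.16 to 0.074, *Homer1* in KO_OL from -0.091 to 0.0077 and *Arc* in KO_RL from -0.10 to 0.42. The cause of these changes was not tested. Replicate numbers did not pair the mice (0 of 15 pairs of groups had every correlation of deviations over 0.1, range -0.689 to 0.676), and the replicate block gave 3 genes in WT_RL in place of 4, *Arc* having an adjusted p of 0.0505 from limma, and left the counts of the other comparisons as they were. With 3 mice a group, differences smaller than the spread between mice were not detectable. Some larger differences, between groups of mice that did not overlap, were not called either. *Inhba*, at 59 to 158 reads, also carried counting error.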
